A study of Mus musculus with 5 samples.

Results

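MHC class I presentation was described here through 10 genes: B2m, H2-K1, H2-D1, H2-T23, Tap1, Tap2, Tapbp, Psmb8, Psmb9 and Nlrc5. The members were chosen by symbol, with no measured value in the rule, and all 10 were found among the 32793 gene rows of the tables. Bulk RNA sequencing had been done on 5 mouse colon spheroid cultures, which are epithelial cultures grown in 3 dimensions. The 2 mutant cultures, labelled RA and called NDD here, expressed dimerization-deficient alleles of both Notch1 and Notch2, named Notch1DD and Notch2DD. The 3 other cultures were wild type (WT). Both groups shared a mixed strain background, C57Bl6 for the most part with some FVB. The labels give no age, sex or treatment, and do not say whether the replicates of a group came from separate animals or lines, so p-values measure only the spread between these cultures, which may be technical. The title of the series places the comparison in the maintenance of the intestine by Notch receptors that act as dimers. The counts of Notch1 and Notch2 do not test the labels, because the alleles are defined by what the receptor can do and not by a loss of RNA.

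Class I molecules show peptides from inside the cell to CD8 T cells and are made by most nucleated cells, gut epithelium included. Proteasomes cut proteins into peptides, the TAP transporter carries these into the endoplasmic reticulum, tapasin helps to load them, and a heavy chain folded with beta-2 microglobulin takes the peptide to the surface. Interferons raise many of these genes together, in part through the transactivator Nlrc5, and exchange the catalytic subunits of the standard proteasome for inducible ones to form the immunoproteasome.

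Of the 10 genes, 8 lie on chromosome 17 in the mouse MHC, within 2.12 Mb of each other in the GENCODE M21 annotation of GRCm38, the mm10 build. Tapbp (tapasin) lies at chr17:33915899-33929292 on the plus strand, and H2-K1 (a classical heavy chain) at chr17:33996017-34000347 on the minus strand. A cluster of 4 genes follows, namely Psmb9 at chr17:34181987-34187764 on the minus strand and Tap1 at chr17:34187553-34197225, Psmb8 at chr17:34197721-34201454 and Tap2 at chr17:34203527-34216321 on the plus strand. H2-D1, the other classical heavy chain, lies at chr17:35262730-35267499 on the plus strand, and H2-T23, a non-classical heavy chain that encodes Qa-1, lies at chr17:36029773-36032855 on the minus strand. B2m (beta-2 microglobulin) lies at chr2:122147686-122153083 and Nlrc5 at chr8:94434356-94527272, both on the plus strand. All are annotated as protein-coding genes. The annotated models of Psmb9 and Tap1 overlap by 212 bases on opposite strands, and reads from that stretch cannot be told apart if strand was not used in counting, which the sources used here do not state.

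Promoters are shown because interferon-responsive class I genes carry known upstream elements, and because the series concerns Notch, whose DNA-binding partner is RBPJ. RefSeq promoters (GRCm38.p6) matched 8 of the 10 members, all but Tap2 and Nlrc5. The windows searched ran from 250 bases before to 50 bases after the RefSeq start, on both strands. The 200 bases before the start are printed 5′ to 3′ on the strand of the gene for 3 heavy chains and B2m, at chr17:34000348-34000547 (minus) for H2-K1, chr17:35262894-35263093 (plus) for H2-D1, chr17:36032702-36032901 (minus) for H2-T23 and chr2:122147487-122147686 (plus) for B2m. The whole 225 bases between the RefSeq starts of the divergent pair Psmb9 and Tap1 are printed on the plus strand, chr17:34187331-34187555. Capitals mark matches, in either direction, to 2 forms of the interferon-stimulated response element (GAAANNGAA and GAANNGAAA), the kappaB palindrome GGGATTCCC, the cyclic-AMP-type element TGACG, the CCAAT box and the RBPJ core TGGGAA.
H2-K1: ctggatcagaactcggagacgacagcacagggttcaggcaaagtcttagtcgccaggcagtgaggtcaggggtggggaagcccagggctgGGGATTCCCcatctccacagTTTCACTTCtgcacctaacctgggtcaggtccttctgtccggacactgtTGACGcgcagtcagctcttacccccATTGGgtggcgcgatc
H2-D1: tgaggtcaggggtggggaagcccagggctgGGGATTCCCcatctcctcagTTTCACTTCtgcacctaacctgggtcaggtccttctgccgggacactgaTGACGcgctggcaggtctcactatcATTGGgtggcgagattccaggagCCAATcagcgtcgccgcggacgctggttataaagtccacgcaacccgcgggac
H2-T23: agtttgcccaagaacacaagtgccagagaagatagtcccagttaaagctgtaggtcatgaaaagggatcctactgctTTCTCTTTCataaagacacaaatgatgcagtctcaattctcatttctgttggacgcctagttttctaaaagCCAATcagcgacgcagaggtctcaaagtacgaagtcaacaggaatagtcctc
B2m: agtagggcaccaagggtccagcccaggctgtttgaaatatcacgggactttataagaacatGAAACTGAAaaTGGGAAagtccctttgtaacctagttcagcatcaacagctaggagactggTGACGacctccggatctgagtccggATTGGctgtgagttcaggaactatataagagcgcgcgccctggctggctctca
Psmb9 to Tap1: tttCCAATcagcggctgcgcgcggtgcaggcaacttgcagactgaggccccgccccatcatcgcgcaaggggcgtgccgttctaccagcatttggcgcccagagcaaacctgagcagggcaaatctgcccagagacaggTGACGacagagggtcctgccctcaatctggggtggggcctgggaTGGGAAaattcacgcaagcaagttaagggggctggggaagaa
H2-K1 and H2-D1 shared an arrangement: a kappaB palindrome, then an interferon-stimulated element of the second form, then TGACG and a CCAAT box. Aligned without gaps so that these elements met, the 2 windows had 176 of 240 bases in common, or 73.3%. Counted from the RefSeq starts, the kappaB palindrome began at -170 in H2-D1 and at -110 in H2-K1. RefSeq and GENCODE place some starts differently: the printed windows of H2-D1 and of Psmb9 to Tap1 lie wholly inside the GENCODE spans of H2-D1 and Psmb9 given above, and that of H2-T23 lies partly inside its own. H2-T23 and B2m held the first form of the interferon element, with its first base at -123 and -139. Psmb8 held neither form but had a gamma-activated sequence (TTCNNNGAA) at -97. The RBPJ core was found in B2m, Psmb8, Psmb9, Tap1 and Tapbp, that of Psmb9 and Tap1 being 1 shared match, and a TGGGAA overlapped the gamma-activated sequence of Psmb8. Among all 32851 RefSeq promoter windows of that length, the first interferon form was present in 8.56%, the second in 7.52%, the kappaB palindrome in 0.353%, TGACG in 20.8%, CCAAT in 37.4%, the gamma-activated sequence in 8.3% and TGGGAA in 25.6%. A match describes the letters in the window and shows no binding.

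Depth was similar between libraries, from 19192389 to 23064000 estimated counts, and a count of 0 allowed up to 3 counts, or 0.130 to 0.156 CPM (counts scaled to library size), counting error only. The cultures carried the markers of their labelled tissue. The 10 epithelial markers summed to 10257 and 11880 TPM (a transcript level scaled for gene length) in NDD and to between 10429 and 11788 TPM in WT. Krt19 and Krt8 had the highest mean TPM among them. Of these 10 markers, edgeR called 0, and 8 had a log2 fold change above 0, with a median of 0.14. For 6 of them both NDD libraries were above all WT libraries in CPM, beside 15.8% of all genes. That count was also 6 among the 10 members. Of 12 immune markers, Cd8a was at 0 in all libraries and Ptprc, the pan-leukocyte gene, stayed at or below 0.03 TPM, and the sum ranged from 10.3 to 19.6 TPM in NDD and from 11.6 to 23.7 TPM in WT. Most of that sum was Laptm5 and Cd68, and the macrophage markers Cd68 (2.80 and 3.42 TPM in NDD, 4.03, 5.38 and 5.88 TPM in WT) and Csf1r (0.02 and 0.23 TPM against 0.26, 0.44 and 1.34 TPM) were lower in both NDD libraries than in all WT libraries. Cd68 and Csf1r were lower without overlap in CPM too, as were 16.2% of all genes. Laptm5 measured 7.01 and 15.4 TPM in NDD against 6.47, 7.83 and 15.5 TPM in WT. Its groups overlapped, as did those of Itgam, and their log2 fold changes were 0.22 for Laptm5 and -0.59 for Itgam. Of the 4 immune markers that passed the filter on low counts, edgeR called 0, and Csf1r alone had an unadjusted p under 0.05, at 0.0378 (adjusted p 0.437). The sum of 8 fibroblast markers was 3.20 and 8.31 TPM in NDD against 1.20 to 2.43 TPM in WT, with Lum and Thy1 at 0. Nearly all of it was Pdgfrb, at 2.98 and 8.17 TPM in NDD and 2.12, 1.51 and 1.09 TPM in WT, giving a log2 fold change of 1.85 (unadjusted p 0.0105, adjusted p 0.369 in edgeR). The sum of 6 endothelial markers was 0.83 and 2.96 TPM against 0.65 to 1.13 TPM, with Kdr, Tie1 and Emcn at 0. Nearly all of that sum was Vwf, at 0.80 and 2.86 TPM in NDD and 0.63, 0.96 and 1.11 TPM in WT, and its groups overlapped. The part of the epithelial, immune, fibroblast and endothelial markers in the members' values was not tested. NDD replicate 2 stood apart among the members: it held the highest CPM of 8 of the 10, and values from fits without it are given below where they differ most.

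The members fell into levels that kept their order in most libraries. B2m was the most abundant, at a mean of 434.5 TPM over the 5 libraries (SD 86.2), followed by H2-D1 at 383.9 (SD 27.6) and H2-K1 at 361.2 (SD 16.5). Tapbp averaged 78.3 TPM (SD 8.89) and H2-T23 51.5 TPM (SD 17.7). Psmb9, Tap1, Tap2 and Psmb8, the inducible proteasome subunits and the peptide transporter, were lower, at 19.5 (SD 8.58), 14.2 (SD 4.19), 14.04 (SD 4.55) and 8.41 TPM (SD 1.72). Nlrc5 was near the limit of detection at 0.092 TPM (SD 0.054). Of the 9 neighbouring pairs in this order, H2-K1 over Tapbp and Psmb8 over Nlrc5 had ranges that did not overlap, and Tap1 lay above Tap2 in only 2 of 5 libraries.

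**Figure D1:**
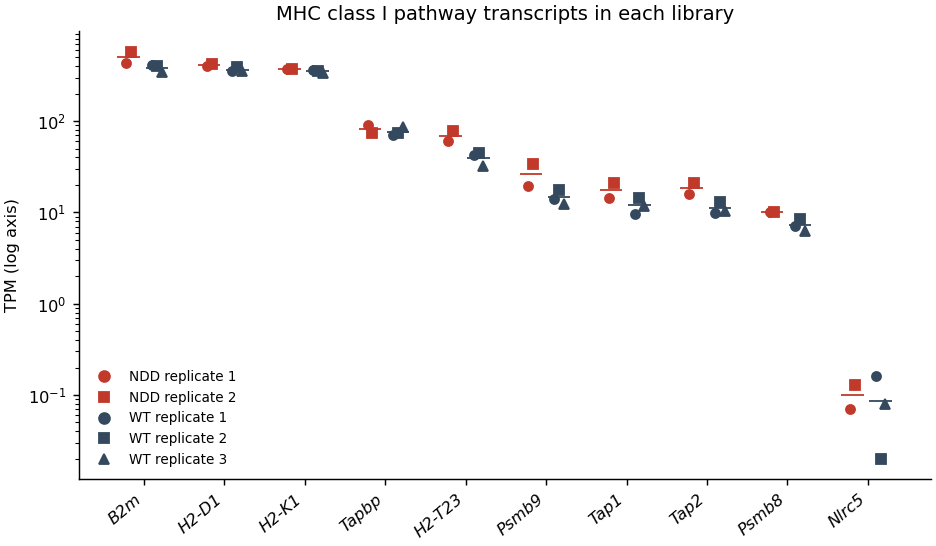
Level of the 10 members in each library, in TPM on a log axis, with 1 point per library (NDD in red, WT in dark blue, shape by replicate number) and short lines at the group means. The classical heavy chains and B2m lie between 335.8 and 577.4 TPM, the transporter and inducible proteasome genes between 6.30 and 34.0 TPM, and Nlrc5 at or below 0.16 TPM.

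No member passed an adjusted p of 0.05 in the comparison of NDD with WT, while fitted values of all 10 were above 0. The edgeR quasi-likelihood test called 12 of 13501 genes, or 0.0889%, so few genes of any kind were called in this comparison. The members' log2 fold changes ran from 0.12 (H2-K1) to 0.91 (Psmb9), with a median of 0.46 against -0.0047 over all tested genes, of which 49.5% were above 0. An unadjusted p under 0.05 was reached by H2-T23, Tap2 and Psmb9, that is 3 of 10 members, beside 6.49% of all genes that reached it with a higher level in NDD. The CPM of both NDD libraries exceeded that of all 3 WT libraries for 6 members (B2m, H2-K1, H2-T23, Tap2, Psmb8 and Psmb9), beside 15.8% of all genes. With DESeq2 1 member was called, and with limma on TPM 0 were. Genes measured in the same 5 libraries are not independent of one another. In bulk RNA, a change in the number of cells of a type and a change in RNA per cell cannot be told apart.

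**Figure D2:**
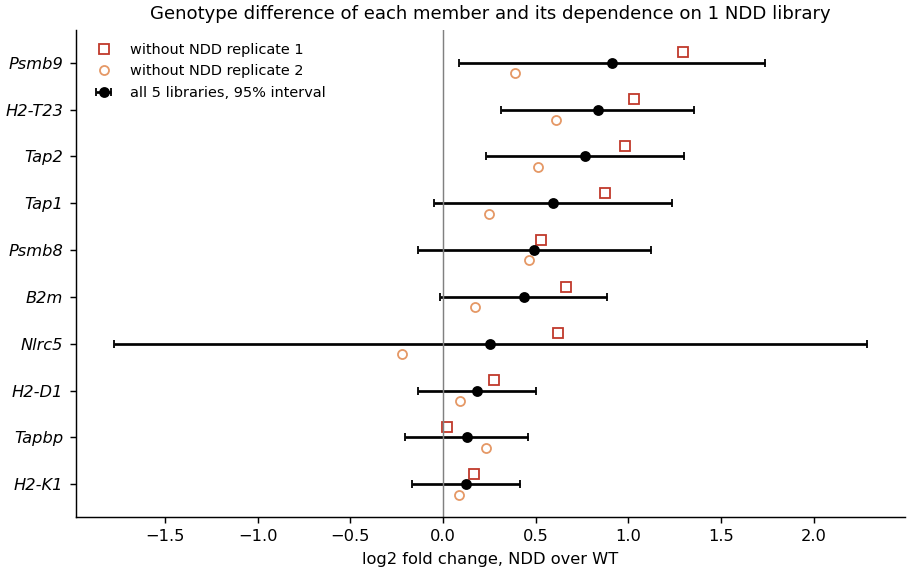
Log2 fold change of each member, NDD over WT, from the edgeR fit, as a filled point with its 95% confidence interval and a line at 0, with open squares for the fit without NDD replicate 1 and open circles for the fit without NDD replicate 2. All 10 filled points lie above 0, the intervals of H2-T23, Tap2 and Psmb9 do not reach it, and the open circle of Nlrc5 lies below it at -0.22.

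The NDD libraries differed from each other. Replicate 2 was above replicate 1 in CPM for 9 members, Tapbp being the exception, and per TPM the ratio of replicate 2 to replicate 1 was 1.76 for Psmb9, 1.46 for Tap1, 1.32 for B2m, 1.30 for Tap2 and 1.26 for H2-T23. It was 1.05 for H2-D1, 0.997 for H2-K1 and 0.986 for Psmb8. Among the WT libraries, replicate 3 held the lowest CPM of 6 members and replicate 1 that of Tap1, Tap2 and Tapbp. Without NDD replicate 2 the median over the members was 0.24, and without NDD replicate 1 it was 0.64.

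The classical heavy chains had the narrowest ranges of TPM over the 5 libraries among the members, relative to their levels. H2-K1 measured 376.5 and 375.3 TPM in NDD and 360.8, 357.6 and 335.8 TPM in WT. The NDD libraries were above all WT libraries, by a small margin. The log2 fold change was 0.12 (SE 0.12), a fold of 1.09 with a 95% interval of 0.892 to 1.33 and an edgeR adjusted p of 0.635. H2-D1 measured 398.7 and 419.7 TPM in NDD and 355.2, 388.4 and 357.5 TPM in WT. Its groups did not overlap in TPM, but in CPM NDD replicate 1 lay below the highest WT library. Its log2 fold change was 0.18 (SE 0.13), a fold of 1.13 with an interval of 0.909 to 1.42 and an edgeR adjusted p of 0.547, and it was 0.092 without NDD replicate 2.

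H2-T23, whose product Qa-1 presents a narrow set of peptides and is the ligand of the NKG2A receptor on NK and T cells, differed more. It measured 61.2 and 77.2 TPM in NDD and 42.3, 44.3 and 32.3 TPM in WT. Both NDD libraries were above all WT libraries, and WT replicate 3 was the lowest. Its log2 fold change was 0.83 (SE 0.21), a fold of 1.78 with an interval of 1.24 to 2.56, an unadjusted p of 0.00761 and an edgeR adjusted p of 0.335. DESeq2, which called 2.49% of the genes it tested, called this member alone, with an adjusted p of 0.0451. Over the edgeR and limma alternatives and the fits that left out a library, adjusted p ranged from 0.0382 to 0.776.

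B2m, the light chain that every class I molecule needs, measured 437.6 and 577.4 TPM in NDD and 407.3, 402.7 and 347.7 TPM in WT. NDD replicate 2 stood well above the rest, while NDD replicate 1 was 1.07 times the highest WT library. This gave a log2 fold change of 0.43 (SE 0.19), a fold of 1.35 with an interval of 0.988 to 1.85 and an edgeR adjusted p of 0.456. Without NDD replicate 2 it was 0.17.

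Several heavy chains share long stretches of sequence. Words of 31 bases were compared between annotated transcripts on the transcript strand alone, so the opposite-strand overlap of Psmb9 and Tap1 is left out. Of these words, 22.8% in H2-K1, 26.7% in H2-D1 and 24.5% in H2-T23 also occur in another gene, against 4.62% in Tapbp, 1.34% in Tap2, 0.825% in Tap1, 0.378% in Psmb8 and none in B2m, Psmb9 and Nlrc5. The split of reads among heavy chains is therefore uncertain, and their values are best read beside their sum. Class I genes also differ between mouse strains, the labels name 2 strains in the background, and mm10, which the submitters' processing notes name, is a C57BL/6J genome. The MHC haplotype of each culture, and its part in these values, was not tested. The TPM of 19 heavy chain genes, H2-L at 0 among them, summed to 923.7 and 1034.3 in NDD and to 850.9, 905.5 and 793.1 in WT. With their counts summed to 1 feature in the same edgeR fit, the log2 fold change was 0.22 (SE 0.15), a fold of 1.17 with an interval of 0.913 to 1.49 and an adjusted p of 0.517.

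H2-K1 and H2-D1 together made up 83.9% and 76.9% of heavy chain TPM in NDD and 84.1%, 82.4% and 87.4% in WT. The groups overlapped, with a mean of 80.4% ± 4.998 (SD, n = 2) in NDD and 84.6% ± 2.56 (SD, n = 3) in WT. That difference of -4.25 percentage points was -0.71 without NDD replicate 2. H2-T23 contributed 6.62% and 7.46% in NDD and 4.97%, 4.89% and 4.08% in WT. These shares did not overlap, at 7.04% ± 0.595 (SD, n = 2) against 4.65% ± 0.498 (SD, n = 3). B2m was 47.4% and 55.8% of the heavy chain sum in NDD and 47.9%, 44.5% and 43.8% in WT, and the groups overlapped. Light and heavy chain RNA thus kept a similar proportion in 4 libraries, with NDD replicate 2 higher.

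**Figure D3:**
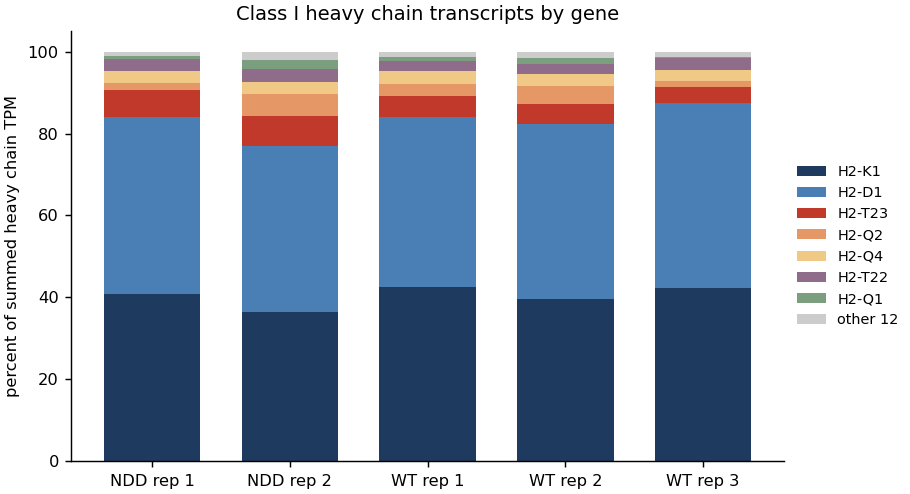
Share of summed class I heavy chain TPM taken by H2-K1, H2-D1, H2-T23, H2-Q2, H2-Q4, H2-T22, H2-Q1 and the 12 other heavy chains, in percent, as stacked bars from 0 to 100 for each library. H2-K1 and H2-D1 take 76.9% to 87.4% in all libraries, and the H2-T23 share is 6.62% and 7.46% in NDD and 4.08% to 4.97% in WT.

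The list of other heavy chains held 18 genes, of which 16 were in the tables and 11 passed the filter on low counts. None was called, 11 of 11 had a log2 fold change above 0 and 1 had an unadjusted p under 0.05, with a median of 0.64 beside -0.0047 over all genes. That median was -0.018 over 13 tested genes without NDD replicate 2, 0.17 with the replicate number as a block, and 0.31 over 8 genes with limma on log2(TPM + 1), or 0.24 over 15 without the filter. The 2 most abundant were the Q region genes H2-Q2 and H2-Q4. H2-Q2 measured 17.3 and 54.6 TPM in NDD and 26.3, 38.5 and 9.85 TPM in WT. Its libraries spread more within the groups than between them, and its log2 fold change of 0.58 (SE 0.68, adjusted p 0.698 in edgeR) was -0.55 without NDD replicate 2. H2-Q4 measured 26.6 and 31.5 TPM against 25.9, 26.5 and 22.1 TPM, a fitted log2 fold change of 0.27 (SE 0.18, adjusted p 0.523 in edgeR) that was 0.090 without NDD replicate 2. H2-T22, named after its values were seen as the gene with an unadjusted p under 0.05, is a ligand of a subset of gamma delta T cells. It measured 27.6 and 31.5 TPM in NDD and 20.5, 22.7 and 23.1 TPM in WT, giving a log2 fold change of 0.46 (SE 0.16, unadjusted p 0.0271, adjusted p 0.437 in edgeR). The groups did not overlap, but 47.2% of its 31-base words occur in H2-T10 and its reads may be split between them.

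Of the class I-like molecules, 4 of 6 passed the filter, 0 were called and 3 had a log2 fold change above 0, with a median of 0.75. Cd1d2 and Mr1 were at 0 in all libraries. Fcgrt, the neonatal Fc receptor that carries IgG across epithelia and pairs with B2m, measured 26.6 and 27.3 TPM in NDD and 20.3, 17.4 and 9.17 TPM in WT. Both NDD libraries were above all WT libraries, with a fitted log2 fold change of 0.81 (SE 0.34, adjusted p 0.450 in edgeR) that was 0.53 without WT replicate 3. Hfe, the iron regulator that also pairs with B2m, lay the other way at 7.10 and 6.78 TPM against 8.28, 9.54 and 9.39 TPM, a fitted log2 fold change of -0.34 (SE 0.21, adjusted p 0.499 in edgeR). Azgp1, a secreted class I-like protein named after its values were seen as the gene of this list with an unadjusted p under 0.05, was low, at 1.94 and 3.47 TPM in NDD and 1.51, 0.44 and 0.32 TPM in WT. Its groups did not overlap, and its log2 fold change was 1.90 (SE 0.73, unadjusted p 0.0403, adjusted p 0.437 in edgeR).

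The peptide transporter is built from the products of Tap1 and Tap2, whose log2 fold changes were 0.59 and 0.77. Tap1 measured 14.3 and 20.8 TPM in NDD and 9.67, 14.5 and 11.7 TPM in WT. NDD replicate 1 lay within the WT range and replicate 2 above it. The SE for Tap1 was 0.26, with a fold of 1.51 with an interval of 0.967 to 2.35 and an edgeR adjusted p of 0.460. Its log2 fold change was 0.25 when NDD replicate 2 was left out and was 0.87 when replicate 1 was. Tap2 measured 16.04 and 20.9 TPM in NDD and 9.88, 12.9 and 10.4 TPM in WT. Both NDD libraries exceeded all WT libraries. This gave a log2 fold change of 0.77 (SE 0.22), a fold of 1.70 with an interval of 1.17 to 2.46, an unadjusted p of 0.0124 and an edgeR adjusted p of 0.385. The transporter needs both chains. Tap1 was 89.0% and 99.3% of Tap2 TPM in NDD and 97.9%, 111.7% and 111.8% in WT. Neither RNA was therefore in large excess in any library, and protein was not measured.

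Tapbp encodes tapasin, which bridges the transporter and the heavy chain. It measured 90.2 and 73.4 TPM in NDD and 69.6, 73.2 and 85.3 TPM in WT. The groups overlapped, and it was the 1 member with a higher value in NDD replicate 1 than in replicate 2 in CPM. Its log2 fold change was 0.13 (SE 0.14), a fold of 1.09 with an interval of 0.868 to 1.37 and an edgeR adjusted p of 0.669.

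Values of the general chaperones of the loading complex lay on the other side of 0. Of 7 other loading and trimming genes, 0 were called, 6 had a log2 fold change below 0 and the median was -0.11. Calr (calreticulin), which holds the heavy chain before loading, measured 793.3 and 440.6 TPM in NDD and 851.7, 866.9 and 951.9 TPM in WT. Both NDD libraries were below all WT libraries, replicate 2 by far, with a fitted log2 fold change of -0.52 (SE 0.23, adjusted p 0.460 in edgeR). Pdia3, the disulfide isomerase bound to tapasin, measured 371.8 and 242.0 TPM in NDD and 358.1, 386.8 and 446.6 TPM in WT. Its groups overlapped, with a fitted log2 fold change of -0.36 (SE 0.19, adjusted p 0.481 in edgeR). Without NDD replicate 2 both were nearer to 0, Calr at -0.18 (adjusted p 0.898 in edgeR) and Pdia3 at -0.11. Without NDD replicate 1, in a fit that called 8.62% of all genes, Calr was -0.94 (adjusted p 0.0235 in edgeR) and Pdia3 -0.64. With a library left out, the median of the list ranged from -0.16 (without WT replicate 2) to -0.077 (without NDD replicate 2). With limma on log2(TPM + 1) it was -0.066.

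Psmb9 and Psmb8 encode the inducible beta1i and beta5i subunits, which replace those of Psmb6 and Psmb5. Psmb9 measured 19.4 and 34.0 TPM in NDD and 14.2, 17.4 and 12.3 TPM in WT. Replicate 2 of NDD was high, and replicate 1 was just above the highest WT library. The log2 fold change was 0.91 (SE 0.34), a fold of 1.88 with an interval of 1.06 to 3.33, an unadjusted p of 0.0356 and an edgeR adjusted p of 0.437. Without NDD replicate 2 it was 0.39 and without NDD replicate 1 it was 1.29. Psmb8 measured 10.2 and 10.02 TPM in NDD and 7.09, 8.50 and 6.30 TPM in WT. The NDD libraries were level with each other and above all WT libraries. Its log2 fold change was 0.49 (SE 0.26), a fold of 1.41 with an interval of 0.910 to 2.17 and an edgeR adjusted p of 0.480. Psmb8 was 52.5% and 29.5% of Psmb9 TPM in NDD and 50.04%, 48.9% and 51.1% in WT, so that NDD replicate 2 alone departed from a near constant proportion.

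Each inducible subunit was then set against the standard subunit it replaces. Psmb8 was 4.82% and 6.67% of Psmb5 TPM in NDD and 3.64%, 4.08% and 2.60% in WT. Psmb9 was 9.85% and 21.4% of Psmb6 TPM in NDD and 7.54%, 8.20% and 5.36% in WT. Psmb10, the inducible beta2i subunit, was 55.6% and 70.9% of Psmb7 TPM in NDD and 50.8%, 46.6% and 40.9% in WT. Every NDD library was above every WT library in all 3 ratios, and the differences of the log2 means were 0.75, 1.07 and 0.45 in that order. The exact two-sided permutation test gave p = 0.2 for each, also after adjustment over the 3 ratios, which is the smallest p that 2 libraries against 3 allow. Without NDD replicate 2 the differences were 0.51, 0.51 and 0.28. How often ratios of other gene pairs part the groups was not counted, so the 3 ratios have no comparison. Both terms of each ratio contributed, though none of these genes was called in edgeR. The log2 fold changes were 0.49 for Psmb8 and -0.23 for Psmb5, and 0.91 for Psmb9 and -0.22 for Psmb6. They were 0.10 for Psmb10 and -0.34 for Psmb7, so in that pair the standard subunit differed more than the inducible one. Psmb10 measured 94.4 and 91.0 TPM in NDD and 87.2, 87.2 and 89.3 TPM in WT, and Psmb7 169.6 and 128.4 TPM against 171.7, 187.0 and 218.4 TPM. RNA of the standard subunits stayed in excess in every library.

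**Figure D4:**
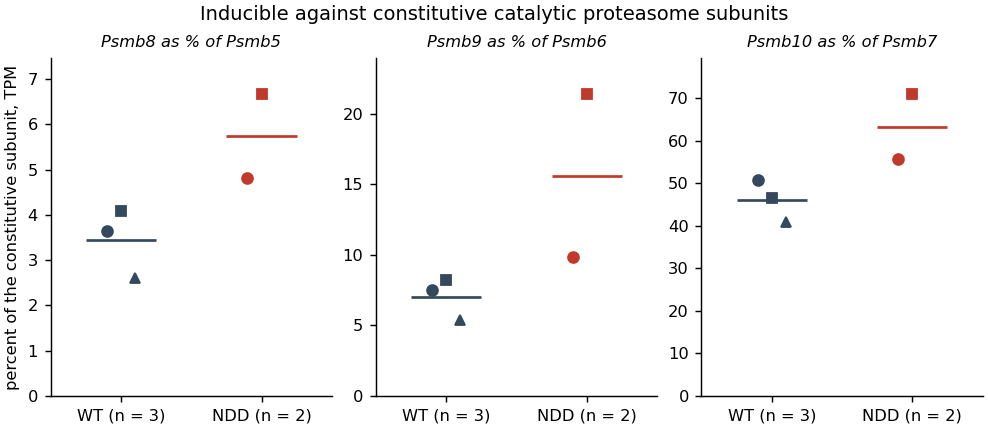
Inducible proteasome subunits as a percent of the standard subunit each replaces, in TPM, for every library (shape by replicate number), with lines at the group means, in 3 panels with separate axes. In each panel both NDD points lie above the 3 WT points, and NDD replicate 2 is the highest, at 21.4% for Psmb9 over Psmb6.

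A list of 17 constitutive proteasome genes held Psma1 to Psma7, Psmb1 to Psmb7, Pomp, Psme3 and Psme4. Of these, Psmb5, Psmb6 and Psmb7 are the ones set against inducible subunits above. In the list of 17, 0 were called, 16 had a log2 fold change below 0 and the median was -0.24. Leaving out NDD replicate 2 gave a median of -0.099, and leaving out replicate 1 gave -0.44. For 9 of them, Pomp, Psme3 and Psme4 included, both NDD libraries were below all WT libraries in CPM, beside 16.2% of all genes. In TPM this held for 6, but the share of all genes in TPM was not counted, so that number has no comparison. Psmb3 measured 367.2 and 265.6 TPM in NDD and 347.4, 388.0 and 409.0 TPM in WT, giving a log2 fold change of -0.24 (adjusted p 0.510 in edgeR) that was -0.063 without NDD replicate 2. Psmb1, the 1 exception in sign, measured 301.5 and 328.5 TPM against 248.6, 281.2 and 287.3 TPM, with 0.24 (adjusted p 0.485 in edgeR) and 0.13 without NDD replicate 2. The interferon-inducible proteasome activator genes Psme1 and Psme2 differed between the groups by less than the spread between replicates. Psme1 measured 162.4 and 163.5 TPM in NDD and 163.6, 160.4 and 173.7 TPM in WT, and Psme2 178.9 and 166.1 TPM against 171.3, 165.8 and 190.7 TPM. Their log2 fold changes were 0.0057 (SE 0.12) and 0.0014 (SE 0.12), with signs that flipped among the alternatives, and edgeR adjusted p-values of 0.983 and 0.996.

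Nlrc5, the transactivator of class I genes, was barely detected. It had 7 and 12 counts in NDD and 13, 2 and 8 counts in WT. The groups overlapped, and the fold of 1.19 had an interval of 0.292 to 4.88 (adjusted p 0.892 in edgeR), so a difference of several-fold was not detectable at this depth. The log2 fold change of 0.25 was -0.22 without NDD replicate 2 and -0.20 without WT replicate 2.

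Of 22 regulators, which cover the X-box and CCAAT-box factors, interferon receptors, their kinases and interferon-responsive factors, 0 were called, 14 had a log2 fold change above 0 and the median was 0.11, or 0.046 without NDD replicate 2. The interferon gamma receptor genes were the most abundant. Ifngr2 measured 169.3 and 186.5 TPM in NDD and 168.9, 165.2 and 139.6 TPM in WT, giving a log2 fold change of 0.20 (adjusted p 0.566 in edgeR) that was 0.084 without NDD replicate 2. Ifngr1 measured 124.1 and 139.7 TPM against 124.4, 125.2 and 135.5 TPM, with 0.068 (adjusted p 0.813 in edgeR) and -0.064 without NDD replicate 2. Irf9, the DNA-binding part of the interferon-stimulated complex, was named after its values were seen as the regulator with an unadjusted p under 0.05. It measured 9.58 and 25.2 TPM in NDD and 8.84, 9.04 and 7.24 TPM in WT. Replicate 2 of NDD alone was far from the others, and the log2 fold change of 1.10 (SE 0.42, unadjusted p 0.0369, adjusted p 0.437 in edgeR) was 0.19 without it. Irf1, which binds interferon-stimulated elements of class I promoters, was also named after its values were seen (unadjusted p 0.0618 in edgeR). Irf1 measured 51.4 and 60.6 TPM against 49.3, 42.1 and 35.7 TPM, with 0.43 (SE 0.19, adjusted p 0.460 in edgeR) and 0.27 without NDD replicate 2. In CPM both NDD libraries were above all WT libraries for 3 regulators, Irf1, Irf9 and Tyk2, beside 15.8% of all genes. They were below all WT libraries for 3 others, Rfxap, Nfyc and Nfkb1, beside 16.2% of all genes. The log2 fold changes of these 3 were -0.28, -0.30 and -0.18 (adjusted p 0.493, 0.481 and 0.512 in edgeR). Tyk2 and these 3 were named after their values were seen.

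The 6 interferon ligand genes that were listed were at or near 0. Ifng, Ifnb1, Ifnl2 and Ifnl3 had 0 counts in all 5 libraries, Ifne had 2 counts in NDD replicate 2 alone, and Ifnk had 1 count in WT replicate 3 alone. A count of 0 allows up to 3 counts in a library, or 0.156 CPM in the shallowest.

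**Figure D5:**
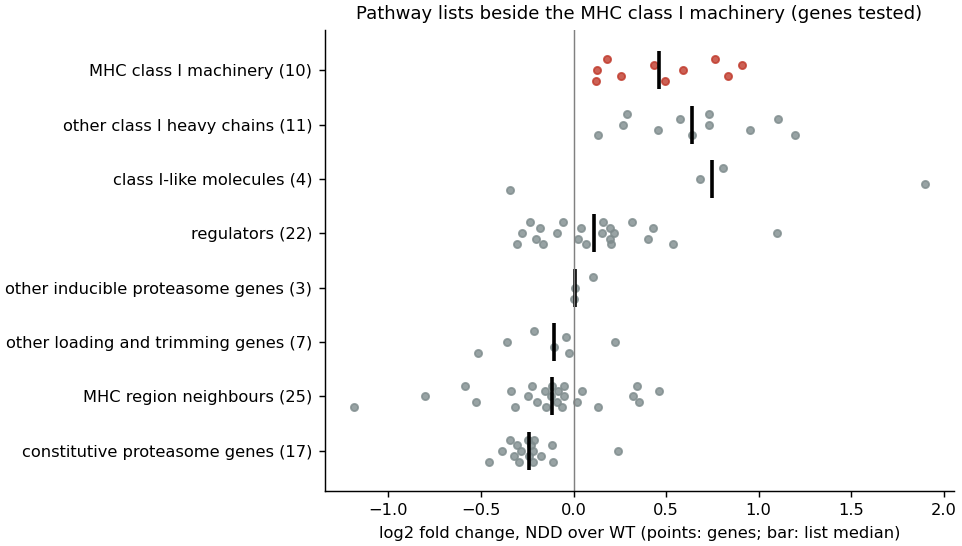
Log2 fold change, NDD over WT, of each tested gene in the members and the related lists, with the median of each list as a vertical bar, a thin line at 0 and the number of genes tested in brackets. The medians are 0.46 for the members, 0.64 for the other heavy chains, -0.11 for the loading and trimming genes and -0.24 for the constitutive proteasome genes.

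With DESeq2 and limma on TPM, 0 genes of the related lists were called as well.

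The rest of the MHC region was described for comparison. Of 25 neighbouring genes with other functions, 0 were called, 7 had a log2 fold change above 0 and 18 below, and the median was -0.12, or -0.066 without WT replicate 3. Rps18, a ribosomal protein gene, measured 1853 and 2240 TPM in NDD and 2177, 2205 and 2200 TPM in WT, giving a log2 fold change of -0.052 (adjusted p 0.877 in edgeR) that was 0.12 without NDD replicate 1. Tubb5, a tubulin gene, measured 631.6 and 254.8 TPM against 729.6, 703.8 and 892.4 TPM, with -0.80 (SE 0.35, adjusted p 0.460 in edgeR). Without NDD replicate 2 it was -0.31, and without NDD replicate 1 it was -1.53 (adjusted p 0.0166 in edgeR). NDD replicate 2 was the lowest library for Tubb5, as it was for Calr and Pdia3.

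Krt20, the keratin of differentiated surface colonocytes and 1 of the 10 epithelial markers, was named after its values were seen. It measured 56.6 and 114.2 TPM in NDD and 32.5, 31.9 and 4.64 TPM in WT. In TPM it was highest in NDD replicate 2 and lowest in WT replicate 3, as were B2m, H2-T23 and Psmb9, with a fitted log2 fold change of 1.93 (SE 0.77, adjusted p 0.440 in edgeR). Its part in the members' values was not tested.

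Leaving out 1 library changed the calls. Without NDD replicate 1, when the remaining NDD library is assumed to vary like the WT libraries, edgeR called 8.62% of genes and 4 members rose: B2m by 0.66 (adjusted p 0.0496), H2-T23 by 1.03 (adjusted p 0.0382), Tap2 by 0.98 (adjusted p 0.0415) and Psmb9 by 1.29 (adjusted p 0.0478), all on the log2 scale. Without any other library, 0 members were called. The 9 members other than Nlrc5 kept a log2 fold change above 0 in every alternative fit run, and the lowest values were 0.021 for Tapbp, 0.078 for H2-K1, 0.092 for H2-D1, 0.17 for B2m, 0.25 for Tap1, 0.38 for Psmb8, 0.39 for Psmb9, 0.51 for Tap2 and 0.61 for H2-T23.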

How the data were processed

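RNA was prepared with a PureLink RNA Mini kit and an Illumina stranded mRNA kit, per the labels' protocols. Bowtie2, RSEM and mm10 are named in the submitters' processing notes, with no versions, and the annotation and any strand setting are not given in the sources used here. The authors deposited estimated counts per gene, as whole numbers, and TPM, scaled by the authors for transcript length. In 214 cells a count of 0 stood beside a TPM above 0, so counts are rounded estimates. All value columns matched a sample title.

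Groups came from the genotype labels. Genes were tested with the quasi-likelihood test of edgeR 4.0.16 in R 4.3.3 (robust, TMM factors, filterByExpr, 13501 genes tested, prior count 0.125) on the counts of all 5 libraries, with Benjamini-Hochberg adjustment over all tested genes and a threshold of 0.05. SE is the log2 fold change over the square root of F. CPM uses TMM-scaled totals, except the limit for a count of 0. Proteasome ratios had an exact permutation test (scipy 1.17.1). Alternatives were RLE factors, no filter, DESeq2 1.42.0, limma 3.58.1 on TPM with a pseudocount of 1 or 0.1 (genes at 1 TPM or more in at least 2 libraries, or, for the first, all genes), the replicate number as a block, summed heavy chains, and each library left out. The fits were tested on simulated data.

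Named genes are the 10 members and, from each related list, those with adjusted p under 0.05 or, with none, the 2 of highest mean TPM. Others were picked with their values in view, as the text says. The members and lists were chosen with earlier results of these data known. H2-Q8 and H2-Q9 of the lists were not analysed here, and some items are not reported here.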

Additional observations from a re-analysis of the deposited data

How the results depend on the processing

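The number of genes called, 12, was 58 without the filter on low counts, 361 with DESeq2 and 33 with the replicate number as a block, and ranged from 0 (without WT replicate 1) to 1207 (without NDD replicate 1) when a library was left out, with 5 without WT replicate 2 and 3 without WT replicate 3. The number of members called was 1 with DESeq2 and ranged from 0 to 4, and calls in the related lists ranged from 0 to 7, both highest without NDD replicate 1 (the 7 were Calr, Psma3, Psme3, Irf9, Wdr46, Tubb5 and Lsm2). The 7 stood among 91 genes of these lists tested in that fit, which held 1 NDD library. That fit called 8.62% of all genes, so the 7 do not set the lists apart. The same replicate numbers do not pair the samples by any label, and the correlation across genes of same-numbered deviations was 0.026 (number 1) and 0.27 (number 2). The replicate block called 0 members, and under it H2-Q2 was -0.021. The log2 fold change of Psme2 reversed to -0.0034 without the filter, -0.0031 with DESeq2, -0.026 on log2(TPM + 1) with or without the filter and -0.027 on log2(TPM + 0.1), and ranged from -0.021 to 0.049 with a library left out. That of Psme1 reversed to -0.025 in the 3 TPM fits and ranged from -0.042 to 0.058 with a library left out. With a library left out, ranges that also crossed 0 were -0.55 to 1.20 for H2-Q2, -0.25 to 0.12 for Rps18, -0.064 to 0.19 for Ifngr1 and -0.22 to 0.62 for Nlrc5, as did the medians of the other heavy chains (-0.018 to 0.88) and of the other inducible proteasome genes (-0.0081 to 0.058). Over all alternatives the members' own values kept direction and side of the threshold in 110 cases, passed it in 5 and reversed in 2, both Nlrc5. The causes were not tested. Nlrc5 had at most 13 counts in a library.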

Other observations

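A search for genes with a profile like that of the members gave a result shaped by Nlrc5. Among 10549 tested genes with a mean log2 CPM of at least 2, those whose centred log2 CPM values over the 5 libraries lay nearest to the mean of the members included Smim26, Fbxw4, Trim21 and Parp14, at root mean square distances of 0.028 to 0.038. Trim21, an interferon-inducible antibody receptor of the cytosol, measured 4.14 and 5.06 TPM in NDD and 3.46, 3.05 and 3.05 TPM in WT. Parp14, an ADP-ribosyltransferase that is also interferon-inducible, measured 7 and 8.33 TPM against 6.16, 5.46 and 5.33 TPM. None of these 4 was called, with edgeR adjusted p-values from 0.437 to 0.480, and the likeness is a description over 5 libraries. In all 4, WT replicate 2 lay below WT replicate 1, whereas in the 9 members other than Nlrc5 it lay above, and the order of these libraries in the mean profile came from Nlrc5, which had 13 and 2 counts in them.

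Neu1, a lysosomal sialidase whose gene lies among the MHC neighbours, was named after its values were seen as their 1 gene with an unadjusted p under 0.05 and a higher level in NDD. It measured 100.8 and 104.3 TPM in NDD and 76.6, 78.1 and 72.7 TPM in WT, with groups that did not overlap. The log2 fold change was 0.46 (SE 0.12, unadjusted p 0.00855, edgeR adjusted p 0.347), and with a library left out it ranged from 0.39 to 0.53. Ppp1r18, the 1 neighbour with an unadjusted p under 0.05 and a lower level in NDD, was also named after its values were seen. It measured 0.56 and 0.45 TPM in NDD and 0.89, 0.98 and 1.70 TPM in WT, without overlap, at a log2 fold change of -1.19 (unadjusted p 0.0466, edgeR adjusted p 0.441).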
